A study of Mus musculus with 6 samples.

Results

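The genes described here are 10 early lymphoid priming genes, Il7r, Dntt, Rag1, Ccr9, Satb1, Ly6d, Cd27, Cd52, Mef2c and Ikzf1, measured in sorted LSK cells of control mice and of mice labelled null for the transcription factor SRF. Every probe set whose platform annotation names one of these genes and no other was taken, which gave 26 of the 45037 probe sets tested and 10 of the 18193 genes that have such a probe set. The series' design text names another Affymetrix mouse array than the platform annotation used here, and gene names rest on probe set identifiers in that annotation. The genes were proposed with their differences in this same SRF-null against control contrast known, so those differences are given as a description. All arrays come from C57BL/6 mice that carried the Mx1-Cre transgene, which is switched on by interferon. Control mice were Srf+/+;Mx1-Cre and SRF-null mice were Srf flx/flx;Mx1-Cre. Mice of both genotypes were 6 weeks old when they received pIpC, an interferon inducer, in 3 intraperitoneal doses of 200 µg with 2 days between them, and their marrow was taken 35 days after the last dose. LSK cells are the bone marrow cells that lack lineage antigens and carry Sca1 and c-Kit, and each of the 3 arrays per genotype holds LSK cells sorted from pooled animals. Mx1-Cre acts in any cell that responds to interferon, so recombination was not restricted to LSK cells, and the sources used here do not give the number of animals in a pool.

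Early lymphoid priming is the low expression of lymphoid genes in multipotent progenitors before they commit to a lymphoid fate. It begins in the progenitors that carry high Flt3 and is set up by chromatin and transcription factors such as Ikaros, MEF2C and SATB1. It continues in common lymphoid progenitors, which express the interleukin-7 receptor, terminal transferase and the RAG recombinase. Stem cells, primed progenitors and a few early committed lymphoid cells all lie within or at the edge of the LSK gate.

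Promoter sequence is shown for 4 of the genes because SRF binds a defined DNA element, the CArG box, and because Il7r and Ccr9 had the largest differences and Dntt and Rag1 encode enzymes of antigen receptor assembly. The sequences are the 250 bases before the start site in RefSeq (GRCm38.p6), 5′ to 3′ along the gene, with capitals for matches to the E-box CANNTG, bound by E proteins, and to TGGGAA, a core of Ikaros sites, on either strand. The windows lie at chr15:9529877-9530126 on the minus strand (Il7r), chr9:123766961-123767210 on the plus strand (Ccr9), chr19:41029025-41029274 on the plus strand (Dntt) and chr2:101649533-101649782 on the minus strand (Rag1), each upstream of the first exon.
Il7r: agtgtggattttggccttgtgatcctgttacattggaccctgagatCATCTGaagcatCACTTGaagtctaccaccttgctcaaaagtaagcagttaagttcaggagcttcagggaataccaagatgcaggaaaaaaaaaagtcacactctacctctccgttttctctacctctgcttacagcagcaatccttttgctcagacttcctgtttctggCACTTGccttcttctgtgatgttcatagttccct
Ccr9: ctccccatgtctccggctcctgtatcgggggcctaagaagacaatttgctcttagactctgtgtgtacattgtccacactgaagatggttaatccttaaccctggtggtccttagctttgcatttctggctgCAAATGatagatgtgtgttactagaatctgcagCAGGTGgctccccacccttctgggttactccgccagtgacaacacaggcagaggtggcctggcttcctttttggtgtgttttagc
Dntt: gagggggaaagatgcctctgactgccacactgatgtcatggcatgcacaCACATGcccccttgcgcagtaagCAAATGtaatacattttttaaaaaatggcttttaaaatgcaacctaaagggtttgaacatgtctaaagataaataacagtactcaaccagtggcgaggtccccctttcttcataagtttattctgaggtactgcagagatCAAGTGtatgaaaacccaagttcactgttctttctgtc
Rag1: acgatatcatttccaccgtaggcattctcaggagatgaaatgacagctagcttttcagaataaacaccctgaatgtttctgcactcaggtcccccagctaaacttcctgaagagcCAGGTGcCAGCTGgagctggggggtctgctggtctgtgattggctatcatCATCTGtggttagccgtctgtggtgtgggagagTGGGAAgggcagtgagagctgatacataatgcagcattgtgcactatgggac
RefSeq promoters matched 8 of the 10 genes with 15 start sites in all, and Ly6d and Cd52 had no entry. A CArG box was found in 0 of these 15 windows, and in 1.47% of all 32851 promoter windows of 250 bases. CANNTG was found in 9 of the 15 windows against 66.2% of all windows, and TGGGAA in 2, those of Rag1 and of 1 of the 5 Satb1 start sites, against 21.6%. Within 1 window the matches to CANNTG and TGGGAA did not overlap. These matches describe letters in the windows and say nothing of binding.

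Values are normalized log2 signals of 1 probe set, on log2(intensity + 16) after quantile normalization, and differences are SRF-null minus control with the standard error (SE) from limma. The offset of 16 makes fold changes of dim probe sets too small. Where a gene has several probe sets the brightest over the 6 arrays stands for it, and levels of different probe sets are not set against each other. The arrays had a median intensity of 200.4 to 292.2 and Spearman correlations of 0.969 to 0.982 with each other. On control replicate 2 the Y-linked genes Eif2s3y (4.37, against 13.06 to 14.50 on the other arrays) and Kdm5d were near the bottom of the scale, and on SRF-null replicate 1 the X-inactivation transcript Xist was (5.03, against 15.13 to 16.24), so results are also given without these 2 arrays where they matter. As a measure of RNA quality, the 3′ minus 5′ log2 signal of Actb was 1.18 to 1.45 on control and 0.93 to 1.51 on SRF-null arrays. The targeted gene Srf was at 13.04, 13.00 and 13.04 on control and 12.58, 12.43 and 12.80 on SRF-null arrays (brighter probe set, difference -0.42, SE 0.14, limma adjusted p = 1), and its second probe set differed by 0.10 (SE 0.35). Kit, the gene of the c-Kit sort antigen, was at 14.84 to 15.44 on control and 14.81 to 14.98 on SRF-null arrays. Ly6a, which encodes Sca1, has no probe set that names it alone.

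In SRF-null LSK cells 9 of the 10 priming genes were higher than in control cells, by 0.16 to 3.38 on the log2 scale, and Cd27 differed by -0.01. In 7 genes (Il7r, Dntt, Ccr9, Satb1, Cd52, Mef2c and Ikzf1) all 3 SRF-null arrays lay above all 3 control arrays, and in Rag1, Ly6d and Cd27 the groups overlapped. The median difference of the 10 genes was 0.44, and that of all probe sets tested was 0.00. Of the 26 probe sets 24 were higher and 18 lay apart in the higher direction, where 4.74% of all probe sets tested did so and 9.24% lay apart in either direction. By limma with Benjamini-Hochberg adjustment over all 45037 probe sets, 0 of the 26 and 0 of the whole table passed an adjusted p of 0.05, and the members' adjusted p-values were 0.812 to 1. At an unadjusted p under 0.05 there were 15 of the 26, all of them higher, and 4.39% of the table (2.37% in the higher direction). When the replicate number was added as a block, the counts past the adjusted threshold were again 0 and 0, the members' lowest adjusted p was 0.543, and at an unadjusted p under 0.05 there were 16 of the 26 and 7.08% of the table. The members were chosen on this contrast, so nothing is read from these counts.

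**Figure D1:**
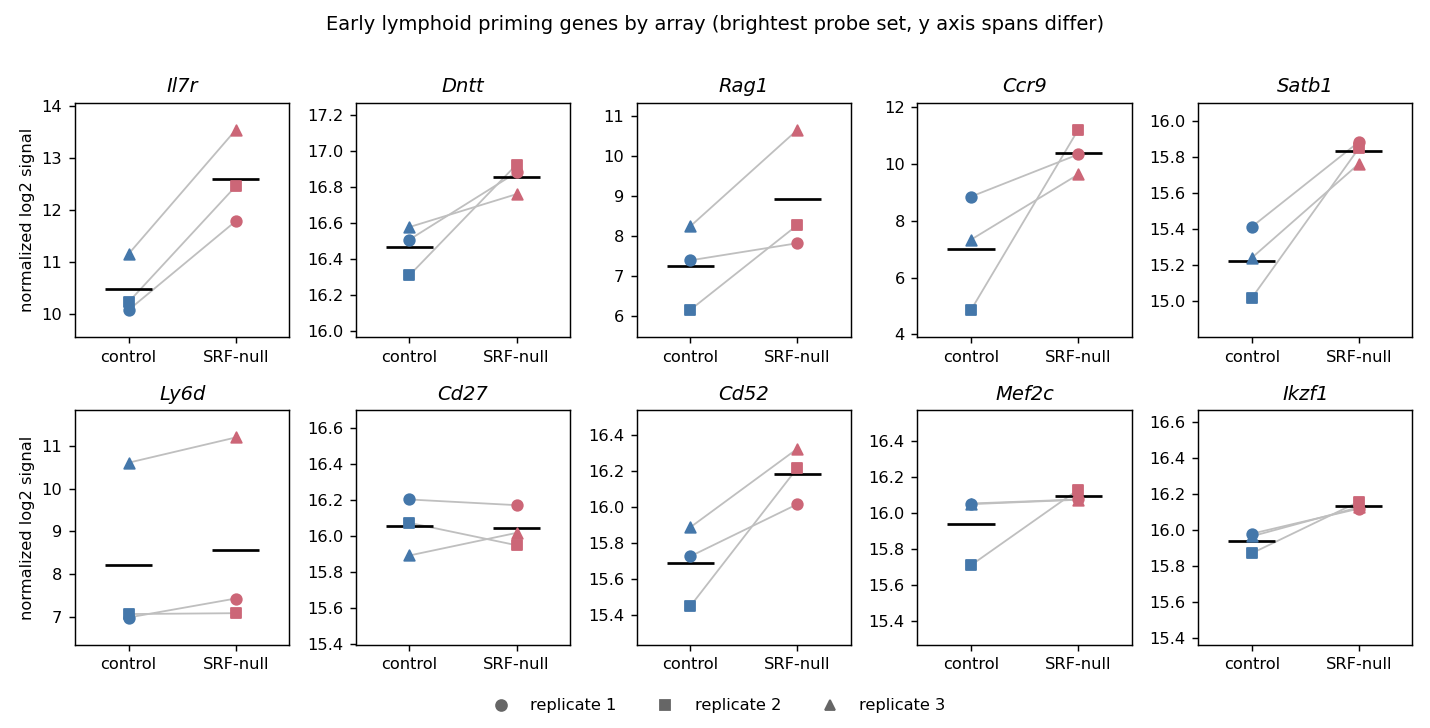
Normalized log2 signal of the brightest probe set of each of the 10 genes on the 3 control (blue) and 3 SRF-null (red) arrays, with black bars for the group means, symbols for replicate numbers and grey lines joining equal numbers. Il7r shows 3 SRF-null arrays at 11.79 to 13.55 above 3 control arrays at 10.09 to 11.16, while Ly6d is high on replicate 3 of both genotypes.

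Over all 6 arrays and by the brightest probe set of a gene, the interleukin-7 receptor gene had the second largest difference after Ccr9. With the mean of a gene's probe sets the order was the other way, 2.11 for Il7r and 1.76 for Ccr9. Il7r encodes the alpha chain of the receptor for interleukin-7, the cytokine that lymphoid progenitors need to survive and divide. It was at 10.09, 10.24 and 11.16 on the control arrays and at 11.79, 12.47 and 13.55 on the SRF-null arrays. Every SRF-null array was above every control array, and replicate 3 was the highest of its group in both genotypes. The difference was 2.11 (SE 0.51), or 4.31-fold, and 0.122% of all probe sets tested had a difference as large or larger. The dimmer Il7r probe set gave 7.69, 8.12 and 8.82 on control and 9.61, 9.97 and 11.39 on SRF-null arrays, with the same order of arrays and a difference of 2.11 (SE 0.53). Between equal replicate numbers the brighter probe set differed by 1.71, 2.23 and 2.38.

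Ccr9, the receptor for the chemokine CCL25 that draws lymphoid progenitors to the thymus, had the largest difference of a brightest probe set over all 6 arrays. Its brightest probe set was at 8.85, 4.86 and 7.33 on control and at 10.34, 11.20 and 9.63 on SRF-null arrays. The groups did not overlap, but the control arrays were spread from 4.86 to 8.85, with replicate 2 near the bottom of the scale. The difference was 3.38 (SE 1.03), and it was 2.30 without control replicate 2. The deposited intensity on that array was 12.45, below the offset, so the size depends on the offset and no fold is given: offsets of 1 and 64 gave 3.77 and 2.79. The probe set of type x, some of whose probes can match related sequences, gave 3.44 (SE 1.06). The 3 other Ccr9 probe sets were dim, between 4.04 and 7.55 on all arrays, and differed by 1.18 (SE 0.31), 0.55 (SE 0.24) and 0.26 (SE 0.40).

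The genes of antigen receptor assembly differed from each other in size and in overlap. Dntt encodes terminal transferase, which adds untemplated bases at the joints of rearranged antigen receptor genes. It was at 16.51, 16.31 and 16.58 on control and at 16.88, 16.92 and 16.76 on SRF-null arrays, a difference of 0.39 (SE 0.13), or 1.31-fold. The groups lay apart on this probe set and on both others, which differed by 0.48 (SE 0.16) and 0.42 (SE 0.13). Rag1 encodes a subunit of the recombinase that cuts those genes. It was at 7.39, 6.16 and 8.24 on control and at 7.82, 8.27 and 10.64 on SRF-null arrays. The groups overlapped, and the difference of 1.65 (SE 0.88) was 0.78 without SRF-null replicate 3, the highest array, and 1.10 without control replicate 2, the lowest. Between equal replicate numbers Rag1 differed by 0.43, 2.11 and 2.40, and a block for these numbers gave an SE of 0.44. Rag2, the gene of the partner subunit, is no member and differed by 1.25 (SE 0.55), with SRF-null values of 8.35, 9.08 and 10.20, again highest on replicate 3.

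Satb1, whose product organizes chromatin in lymphoid cells, had 5 probe sets, all of them with positive differences. The brightest was at 15.41, 15.02 and 15.24 on control and at 15.89, 15.85 and 15.76 on SRF-null arrays, a difference of 0.61 (SE 0.15), or 1.52-fold. The next probe sets by brightness were at 13.35, 12.87 and 13.22 against 14.52, 13.98 and 14.15, a difference of 1.07 (SE 0.21), and at 12.49, 12.32 and 12.39 against 13.83, 14.09 and 13.50, a difference of 1.40 (SE 0.18). On all 3 the genotypes lay apart, and the third had the lowest limma adjusted p of the 26, 0.812. The fourth probe set, at 10.04, 7.79 and 8.08 against 10.87, 9.93 and 10.10, overlapped because of control replicate 1 and differed by 1.66 (SE 0.64). The faintest, at 5.18 to 5.31 on control and 5.18 to 5.61 on SRF-null arrays, differed by 0.13 (SE 0.16). Satb1 is the 1 member on chromosome 17, where the deleted gene also lies, 61 places from it in the RefSeq order of protein-coding genes (GRCm38.p6), and the part of that linkage in the result was not tested.

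On their brightest probe sets the other transcription factors, Mef2c and Ikzf1, differed by less than Satb1. Mef2c encodes a MADS box factor, of the same protein family as SRF, that favours lymphoid over myeloid fate in multipotent progenitors. Its brightest probe set was at 16.05, 15.71 and 16.05 on control and at 16.08, 16.13 and 16.07 on SRF-null arrays. The groups lay narrowly apart, with a difference of 0.16 (SE 0.15), which was 0.04 without control replicate 2. The 4 dimmer probe sets lay apart as well and differed by 0.21 (SE 0.14), 0.45 (SE 0.14), 0.28 (SE 0.12) and 0.58 (SE 0.18). Ikzf1 encodes Ikaros, the zinc finger factor required for lymphoid priming. It was at 15.98, 15.87 and 15.96 on control and at 16.12, 16.16 and 16.13 on SRF-null arrays, a difference of 0.20 (SE 0.11), whereas its dimmer probe set overlapped between genotypes and differed by -0.15 (SE 0.29).

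Among the surface genes Cd52 was higher, Cd27 differed by less than its spread and Ly6d followed the replicate number. Cd52 encodes a small glycoprotein anchored to the lymphocyte membrane. It was at 15.73, 15.45 and 15.89 on control and at 16.02, 16.22 and 16.32 on SRF-null arrays, which lay apart with a difference of 0.50 (SE 0.17), or 1.41-fold. Cd27, a TNF receptor family gene carried by multipotent progenitors and lymphocytes, was at 16.20, 16.07 and 15.89 on control and at 16.17, 15.95 and 16.02 on SRF-null arrays, a difference of -0.01 (SE 0.14). Ly6d, which marks common lymphoid progenitors biased to the B lineage, was at 6.98, 7.06 and 10.61 on control and at 7.43, 7.08 and 11.21 on SRF-null arrays. Both replicate 3 arrays were high and the other 4 were low, so the genotype difference of 0.35 had an SE of 1.47, and it was -0.96 without SRF-null replicate 3. Between equal numbers Ly6d differed by 0.45, 0.02 and 0.59.

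**Figure D2:**
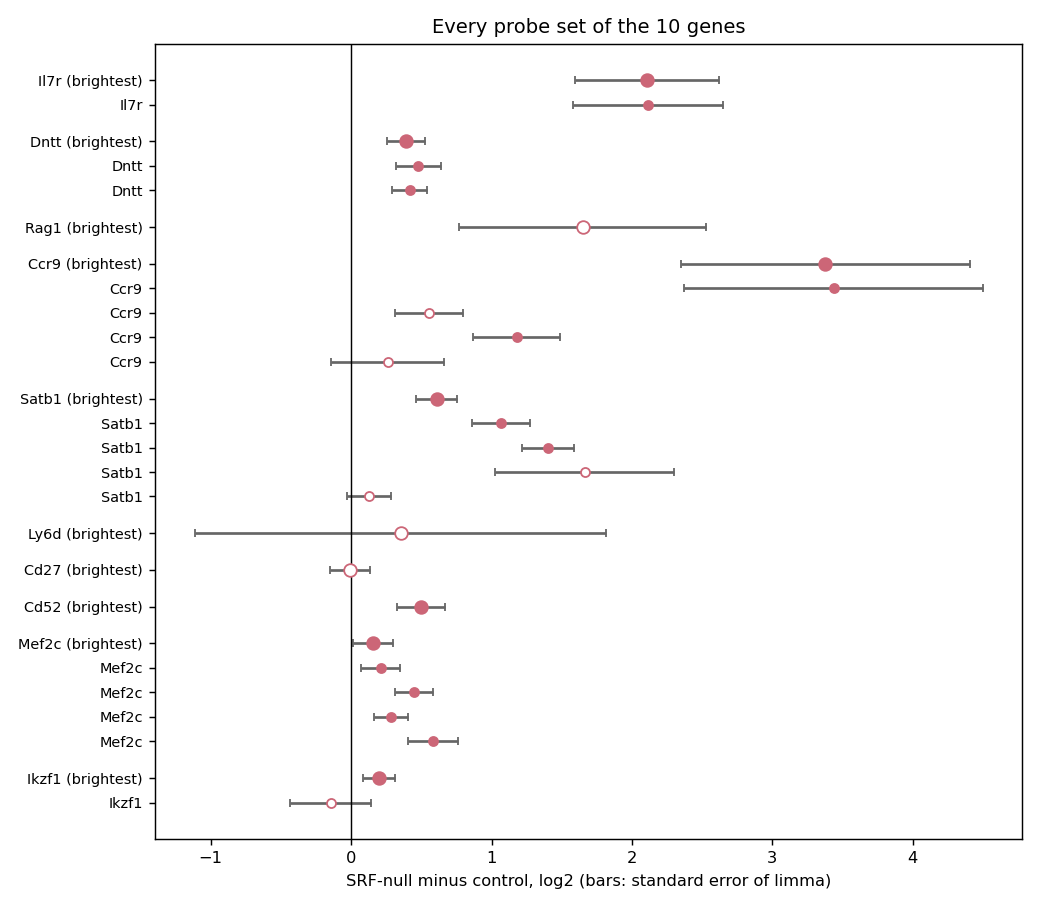
Difference SRF-null minus control on the log2 scale for each of the 26 probe sets, with bars for the standard error of limma, larger points for the brightest probe set of a gene and filled points where the 3 SRF-null and 3 control arrays do not overlap. The differences run from -0.15 for the dimmer Ikzf1 probe set to 3.44 for a Ccr9 probe set.

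The order of the arrays differed between the members. Dntt, Ccr9, Satb1, Mef2c and Ikzf1 were lowest on control replicate 2, and their highest array was SRF-null replicate 2, except for Satb1, where it was SRF-null replicate 1. Il7r, Cd52, Rag1 and Ly6d were highest on SRF-null replicate 3 and, among the controls, on control replicate 3. Cd52 and Rag1 were also lowest on control replicate 2, so the members did not split cleanly by array order. Deviations from the group means of Il7r correlated with those of Ly6d (r = 0.92) and Rag1 (r = 0.89) and those of Ccr9 with those of Satb1 (r = 0.96) and Ikzf1 (r = 0.94), whereas r was -0.17 between Il7r and Ccr9. Deviations of Cd52 correlated most with those of Rag1 (r = 0.87), then Il7r (r = 0.77), Mef2c (r = 0.76), Ikzf1 (r = 0.75) and Ly6d (r = 0.73). With Dntt, Ccr9, Satb1 and Cd27 r was 0.52, 0.49, 0.37 and -0.57. These are descriptions over the same 6 arrays, and no test was made. Without control replicate 2 and SRF-null replicate 1, the arrays with transcripts of 1 sex, 9 of the 10 genes were again higher and 8 lay apart, where with 2 arrays per genotype 15.2% of all probe sets lay apart in the higher direction, with differences of 2.38 for Il7r, 2.32 for Ccr9 and 0.48 for Satb1. In bulk cells a larger share of cells with a transcript and more transcript per cell cannot be told apart. Between equal replicate numbers 9 of the 10 genes were higher in all 3 pairs, where 14.0% of all probe sets were.

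**Figure D3:**
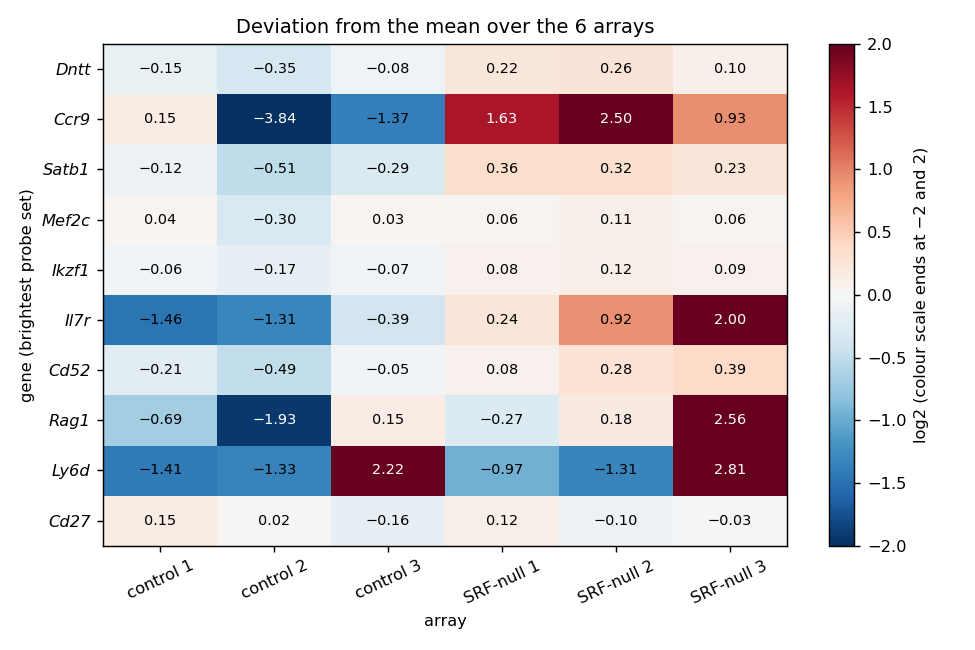
Deviation of each array from the gene's mean over the 6 arrays, in log2 units, for the brightest probe set of each gene, with red for higher and blue for lower. Ly6d is 2.22 above its mean on control replicate 3 and 2.81 above it on SRF-null replicate 3, and the value of Ccr9 on control replicate 2 is -3.84.

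The scaling between arrays bears on the bright members. Array medians of log2 signal before normalization ranged from 7.76 to 8.27. With median centring in place of quantile normalization 9 of the 10 genes were again higher, but the genotypes lay apart in only 3 of the 10, Il7r, Ccr9 and Satb1, and in 9 of the 26 probe sets, where 2.38% of all probe sets lay apart in the higher direction. Dntt was then at 16.19, 16.45 and 16.81 on control and at 16.72, 16.93 and 16.86 on SRF-null arrays, a difference of 0.36 (SE 0.26). Cd52 likewise differed by 0.47 (SE 0.29). With no normalization 7 genes lay apart, where 4.67% of all probe sets did so in the higher direction. The median difference of all probe sets was -0.03 with median centring and 0.00 without normalization. Centring sets the array medians equal, so this median says nothing of the bright probe sets. Upper quartiles of intensity were 5008 to 5312, closer together than the medians of 200.4 to 292.2, so centring on the medians moved bright probe sets between arrays. Dntt on control replicate 1 went from 16.51 with quantile normalization to 16.19 with median centring.

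Other genes of the same programme were split between both directions. Of 52 genes listed for interleukin-7 signalling, V(D)J recombination, lymphoid transcription factors and the surface of lymphoid-primed progenitors, 47 were measured, of which 27 were higher and 20 lower, with a median difference of 0.03. Of the 47, 4 lay apart in each direction, where 938 of all 18193 genes lay apart in the higher and 991 in the lower direction. In either direction 0 passed the limma adjusted p of 0.05. At an unadjusted limma p under 0.05 there was 1 in each direction, where 4.95% of all genes passed it. These lists were written with earlier results of these data known.

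Among 10 measured partners of the interleukin-7 receptor 7 were lower and 3 higher, with a median of -0.18. Cish, a feedback inhibitor induced by STAT5, was at 13.52, 14.20 and 13.55 on control and at 11.81, 12.38 and 12.33 on SRF-null arrays. The groups lay apart, opposite in direction to Il7r, with a difference of -1.58 (SE 0.26, limma adjusted p = 0.898). Bcl2, a survival gene, differed by 0.35 (SE 0.21) and Jak3, the kinase of the common gamma chain, by -0.22 (SE 0.24).

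In the V(D)J list 5 of 8 genes were higher with a median of 0.03, and besides Rag2 the end-joining genes Nhej1 and Xrcc4 differed by 0.56 (SE 0.34) and -0.21 (SE 0.15). Of 21 lymphoid transcription factors 14 were higher and 7 lower with a median of 0.12. Ebf1, the B cell specification factor, differed by 1.79 (SE 0.95), Bcl11b, of T cell commitment, by 1.32 (SE 0.58), and Tcf3, of the E proteins, by -0.58 (SE 0.33), and the groups overlapped in each of the 3. Ebf1 and Bcl11b were highest on SRF-null replicate 3, at 11.04 and 9.26, and among the controls on replicate 3. On the surface list 5 of 8 genes were higher with a median of 0.10. Flt3, the receptor that defines lymphoid-primed progenitors, was at 15.69, 15.14 and 15.10 on control and 15.60, 15.44 and 15.27 on SRF-null arrays, a difference of 0.13 (SE 0.21), and Cd48 and the lymphotoxin gene Ltb differed by 0.16 (SE 0.26) and -0.29 (SE 0.53).

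Markers of other cells were measured beside the priming genes, since committed cells also express several of them. Monocyte and macrophage markers were higher in 10 of 12 genes with a median of 0.76, and their summed normalized signal was 118034 to 134910 on control and 140484 to 159044 on SRF-null arrays. Lyz2, Ctss and Csf1r made up 85.9% to 93.7% of that sum, so it says little of the dimmer genes. Lyz2, the largest, differed by -0.07 (SE 0.16), Ctss by 0.75 (SE 0.19) and Csf1r by 0.62 (SE 0.65). Without Lyz2 the sums still did not overlap, at 33154 to 61663 on control and 64887 to 90231 on SRF-null arrays. Among the dimmer genes Mrc1, the mannose receptor gene, differed by 2.08 (SE 0.55). The complement genes C1qb and C1qa differed by 1.87 (SE 0.89) and 1.70 (SE 0.56). C1qb was at 9.22 to 10.15 on control and at 9.38, 12.63 and 12.38 on SRF-null arrays, and overlapped on replicate 1. C1qa was at 6.02 to 6.71 on control and at 6.87, 8.44 and 8.98 on SRF-null arrays. No marker of this list was at the bottom of the scale, that is under a log2 signal of 5 on every array.

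T cell markers were higher in 15 of 17 genes with a median of 0.29, and their summed signal was 14625 to 16226 on control and 14956 to 21730 on SRF-null arrays. Cd4, which was at 7.17, 8.22 and 8.25 on control and at 8.72, 9.23 and 9.02 on SRF-null arrays, and Cd247, the zeta chain, lay apart with differences of 1.11 (SE 0.34) and 0.68 (SE 0.18), and Thy1 differed by 0.47 (SE 0.57). Lat made up 52.5% to 82.3% of the sum. Of the defining genes Cd3g, Cd8b1 and Ptcra were at the bottom of the scale on every array, and Cd3d reached 5.05 on 1 array. Cd3e was at 5.47, 4.10 and 5.58 on control and at 4.38, 7.54 and 7.51 on SRF-null arrays, so it was higher on 2 of the 3 SRF-null arrays and differed by 1.43 (SE 0.95).

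NK cell markers were higher in 8 of 10 genes with a median of 0.30, which was -0.18 without SRF-null replicate 3 and 0.63 without control replicate 3. Their summed signal was 61814 to 72823 on control and 82415 to 91410 on SRF-null arrays, of which Nkg7 alone made up 88.9% to 91.9%. Without Nkg7 the sums overlapped, at 5907 to 7199 and 6644 to 9956. Klrd1 differed by 1.42 (SE 0.39), Nkg7 by 0.40 (SE 0.13) and Prf1 by 0.06 (SE 0.15). Each of the NK, plasmacytoid dendritic and B lineage markers measured reached a log2 signal of 5 on at least 1 array.

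Plasmacytoid dendritic cells are a further cell type known for Ccr9. Their markers were higher in 8 of 12 genes with a median of 0.19, and the summed signal of 220239 to 240327 on control and 233377 to 268608 on SRF-null arrays overlapped. Siglech was at 6.84, 10.48 and 9.92 on control and at 7.11, 10.74 and 13.33 on SRF-null arrays, lowest on replicate 1 of both genotypes, and differed by 1.32 (SE 1.75). Cox6a2 and Tlr7 lay apart with differences of 2.31 (SE 0.67) and 0.77 (SE 0.19). B lineage markers were higher in 7 of 13 genes with a median of 0.04 and a summed signal of 43165 to 60997 against 44827 to 67440, and the median turned to -0.23, -0.12 and -0.61 without control replicate 1, control replicate 2 or SRF-null replicate 3. Pou2af1, a B cell coactivator gene, was at 7.68, 8.28 and 12.87 on control and at 6.93, 8.82 and 12.12 on SRF-null arrays, high on both replicate 3 arrays as Ly6d was. The surrogate light chain genes Vpreb1 and Igll1 differed by 0.48 (SE 0.58) and -3.06 (SE 2.02), and they too were highest on replicate 3 within each genotype.

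Markers of type 2 innate lymphoid cells were higher in 5 of 9 genes with a median of 0.06 (-0.0020 without control replicate 3) and a summed signal of 6962 to 8465 against 6340 to 10144, with Icos at 1.07 (SE 0.42), Gata3 at -0.35 (SE 0.16) and Il17rb at 0.27 (SE 0.50), and 2 genes were at the bottom of the scale. Of the measured lineage antigens of the depletion gate 6 of 6 were higher with a median of 0.49, among them Ptprc, a pan-leukocyte gene, by 0.09 (SE 0.17). Cd3e, Cd4, Cd8a and Cd5 are also in the T cell list, so the 2 lists are not separate observations. In 4 of the 6 genes the log2 signal was under 8 on every array, and offsets of 1 and 64 gave medians of 0.62 and 0.30. Stem cell genes were lower in 12 of 14 genes with a median of -0.36, with Slamf1 at -1.40 (SE 0.62), Tie1 at -0.92 (SE 0.24) and Hoxb5 at -0.91 (SE 0.40). Of the 14, 4 lay apart in the lower direction, where 991 of all 18193 genes did so. Of the 90 different marker genes measured 0 passed the limma adjusted p of 0.05, and at an unadjusted p under 0.05 there were 18, of which 14 were higher, where 4.95% of all genes passed it and 2.58% did so in the higher direction. The lists were written with earlier results known, and nothing is read from that count. The part of these other cell types in the differences of the priming genes was not tested.

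**Figure D4:**
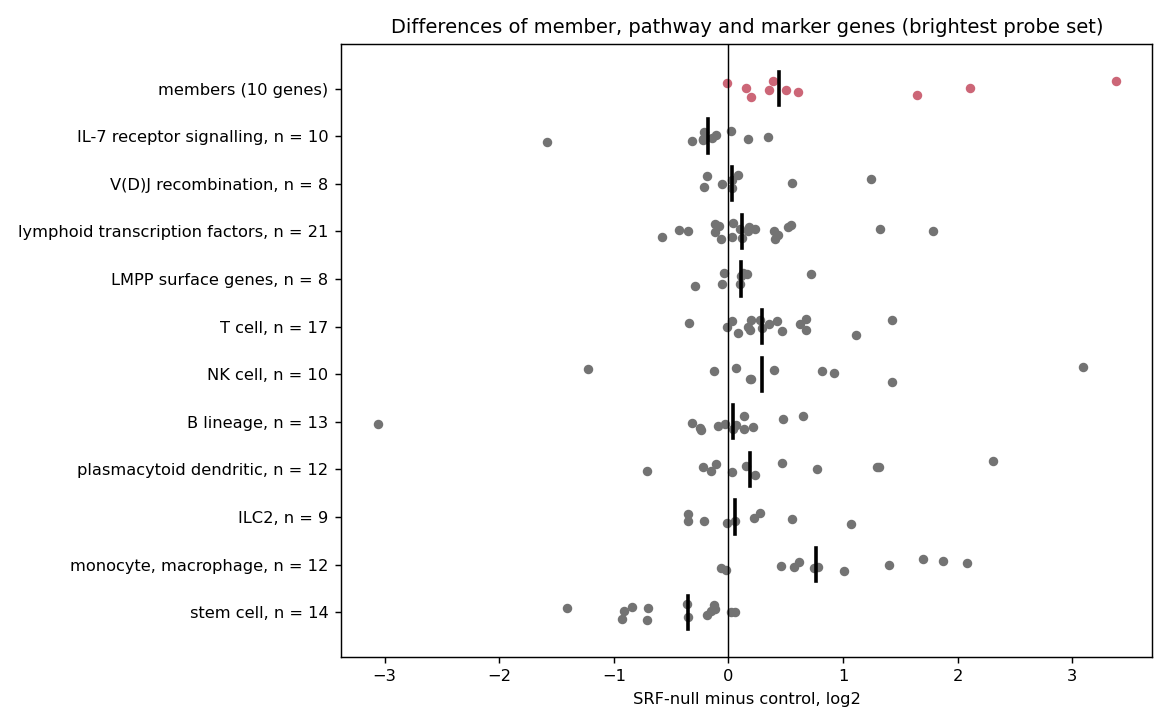
Difference SRF-null minus control on the log2 scale for the brightest probe set of each member (red), pathway gene and marker gene (grey), with a black bar for the median of each list, points spread vertically at random and n the number of genes measured. The median is 0.44 for the members, -0.18 for interleukin-7 receptor partners, 0.76 for monocyte and macrophage markers and -0.36 for stem cell genes.

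The genes whose array pattern was most like that of the members were sought among 1462 bright and variable genes, by Pearson correlation over the 6 arrays with the members' mean profile. That profile was -0.38, -1.02 and 0.00 on control and 0.16, 0.33 and 0.91 on SRF-null arrays, each relative to the mean over arrays. The genotypes did not overlap in it, but the members were chosen on this contrast, so nothing is read from that. Genes were centred and not scaled, so members that vary widely between arrays, such as Ccr9, weigh most in the profile. The 6 most alike were the NK receptor gene Klrd1 (r = 0.97), the immunoglobulin heavy chain variable gene Ighv14-2 (0.97), Plbd1 (0.96), Pdzd4 (0.96), Ppm1e (0.96) and Rag2 (0.94). These are the highest of 1462 correlations over only 6 arrays, so nothing is read from their size. Pdzd4 was at 11.54, 10.02 and 11.88 on control and at 13.08, 13.11 and 13.58 on SRF-null arrays, a difference of 2.11 (SE 0.50), and like Ccr9 and Dntt it was lowest on control replicate 2.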

How the data were processed

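Expression was measured on 3 control and 3 SRF-null arrays. Amplification and biotin labelling of 30 ng RNA used NuGEN kits, per the labels' protocols. The authors deposited linear intensities, 1 for each probe set on each array, and the sources used here do not state the summary method, background correction or scaling. The series' design text names another Affymetrix mouse array than the annotation of these probe sets, and the annotation was followed. The table of 45101 probe sets includes 64 Affymetrix controls, which were left out, and 34945 probe sets that name 1 gene, 932 several and 9160 none in the platform annotation.

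Intensities were turned into log2(value + 16) and quantile normalized over all 45037 remaining probe sets with limma 3.58.1 in R 4.3.3, with no filter on dim probe sets. SRF-null was compared with control with lmFit and eBayes, genotype as the only term, two-sided, with Benjamini-Hochberg adjustment over all probe sets and a threshold of 0.05. The procedure was also run on simulated data, as a check that inserted differences were recovered at the median. Noise was drawn independently for each array there, without shared replicate or sex structure, so that run says nothing of such structure in these arrays. Nothing says that the pools were separate beyond their numbers, so p-values measure the spread between these arrays, and their number limits the precision. The labels do not say that equal replicate numbers share a day, a litter or a batch. Equal replicate numbers were taken as pairs, since deviations from the group means correlated at 0.473, 0.210 and 0.427 over all probe sets in the 3 pairs. Correlations between unequal numbers were not set beside these, so the pairing is an assumption made from the same data.

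The members, the gene lists and the tests were chosen with earlier results of these data known. Each pathway or marker list names at most 3 genes, those with the largest absolute difference among genes with a mean log2 signal of at least 8 in either genotype. Genes named beyond that rule were chosen after their values were seen, namely Rag2 beside Rag1, the list genes said to lie at or near the bottom of the scale, Cd3e, the genes that make up most of a list's summed signal, and the sex-linked genes. Genes alike in pattern had to have a mean log2 signal of at least 8 and a standard deviation of at least 0.5. Alternatives covered the offset, the scaling, a level filter, the use of probe sets, the variance model, the replicate block and each array left out. Figures were drawn with matplotlib 3.10.9.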

Additional observations from a re-analysis of the deposited data

How the results depend on the processing

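Of 448 recomputed values under 16 alternatives 424 were labelled unchanged. These kept their direction and side of the threshold, stayed within the replicate spread or, for counts, within a set ratio. The variance model, the replicate block, the level filter and 1 probe set per gene cannot change a gene's difference. The lowest limma adjusted p of a member gene under any alternative was 0.501, so none came near the threshold. The 424 is therefore no measure of robustness. With groups of 3 arrays, 1 array can move a count. The number of probe sets past the adjusted threshold was 1 with median centring (Mocs1) and 1 without control replicate 2 (Ccnb1ip1), both named after their values were seen, and leaving out 1 array gave 0 to 1. At an unadjusted p under 0.05 there were 1230 probe sets with median centring, 1127 among those above the median level, 1042 with 1 probe set per gene, 941 with the mean of a gene's probe sets, 3189 with the replicate block, 1288 without the 2 arrays of 1 sex, and 1423 to 3421 with 1 array left out, the highest without control replicate 1. Where fewer probe sets or arrays entered, the number tested or the size of the groups changed too; otherwise the cause was not tested. The replicate block changed no call at the adjusted threshold, while at an unadjusted limma p under 0.05 it brought in Rag1 and lost Dntt among the 10 genes.

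The count of member genes whose genotypes did not overlap was 3 with median centring and 7 to 9 with 1 array left out, where 2.38% and 8.2% to 11.4% of all probe sets lay apart in the higher direction. The median of the 10 genes was 0.35 to 0.61 with 1 array left out. Ly6d turned to -0.27, -0.23 and -0.96 without control replicate 1, control replicate 2 or SRF-null replicate 3, (range -0.96 to 1.55 with 1 array left out), and Cd27 to 0.063, 0.038 and 0.0041 when control replicate 1 or SRF-null replicate 2 or 3 was left out (range -0.092 to 0.063). With the mean of a gene's probe sets the difference was 1.76 for Ccr9, 0.97 for Satb1, 0.34 for Mef2c and 0.02 for Ikzf1. With 1 array left out, list medians ran from -0.19 to -0.037 for interleukin-7 receptor partners, 0.0077 to 0.16 for the surface of lymphoid-primed progenitors, 0.27 to 0.70 for lineage antigens, 0.0035 to 0.29 for plasmacytoid dendritic cell, -0.18 to 0.63 for NK cell, -0.61 to 0.31 for B lineage, 0.18 to 0.49 for T cell and -0.0020 to 0.18 for type 2 innate lymphoid cell markers, -0.50 to -0.20 for stem cell genes and 0.0044 to 0.11 for the V(D)J list. Without the 2 arrays of 1 sex the surface list had -0.018 and the lineage antigens 0.29. Dim probe sets, such as 3 of Ccr9 and 1 of Satb1, limit what can be read from them.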
